A study of Gallus gallus with 22 samples.

Results

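The 100 genes described here are those whose jejunal RNA differed most between broilers on the same diet. They were chosen from the deposited log2 CPM, the log2 of a gene's counts relative to the scaled size of the library. A gene had to have a mean of at least 5 in the jejunum, a jejunal mean above its pancreatic mean, and a difference between both means under 6. Among 17007 genes, 2813 met these limits, after 2 genes had been left out by name. These were ranked by the SD between libraries of the same diet, pooled over both diets, and the first 100 were taken.
The proximal jejunum takes up most of the digested nutrients of a chicken, through villi lined with enterocytes whose brush border carries digestive enzymes and transporters. The villi also hold goblet cells, hormone-releasing cells, lymphocytes, smooth muscle and blood vessels, and a tissue piece carries RNA of all of them. Broilers given the same feed can differ in the make-up and in the activity of this mixture.
Male Ross 308 broilers were fed a coarsely ground corn diet without SB, the fibrous residue of sugarcane (control broilers), or the same diet diluted with 2% SB (SB-fed broilers). On d 24, 1 broiler per pen gave RNA from the proximal jejunum and from the pancreas, and each library comes from a single broiler. The jejunum is represented by 5 control and 6 SB libraries, and the pancreas by 6 control and 5 SB libraries. The study excluded outlier samples after a principal component analysis. It reports that they showed lower performance (pancreas) or higher RNA concentration (jejunum). It sampled 6 broilers per diet, and the deposited data hold 5 libraries for control jejunum and for SB pancreas. The outliers thus appear to be missing, although the study states that count data of all samples were deposited. The spread given here is that of the deposited libraries.
Total counts ranged from 42540952 to 203039911 in the jejunum and from 65957320 to 300479804 in the pancreas. These totals are well above the mean clean reads that the study reports for each group, a difference the sources used here do not explain. The lowest count of any of the 100 genes in a jejunum library was 370. Control replicate 4 and SB replicate 1 stood apart from the other jejunum libraries, and several results that rest on them are also given without both. In bulk RNA, fewer cells of one type and less RNA per cell cannot be told apart. The files list genes by Ensembl identifier, so most of the 100 genes appear here without a symbol or a role, and the tissue labels were not checked against marker genes.

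The pooled SD of the 100 genes ranged from 0.70 to 2.35 log2 CPM, with a median of 0.88. The other 2713 genes within the limits had a median of 0.19. An SD above 1 was found for 34 of the 100 genes, and an SD above 2 for 6. Between its lowest and its highest jejunum library, a gene of the set differed by 3.27 to 58.9 times, with a median of 5.85. These values chose the genes and are a description. At the border of the set, ENSGALG00010009658 and ENSGALG00010022483 had an SD of 0.703 each and were the last 2 inside, while ENSGALG00010017402 and ENSGALG00010025200, each at 0.701, were the first 2 outside.

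**Figure D1:**
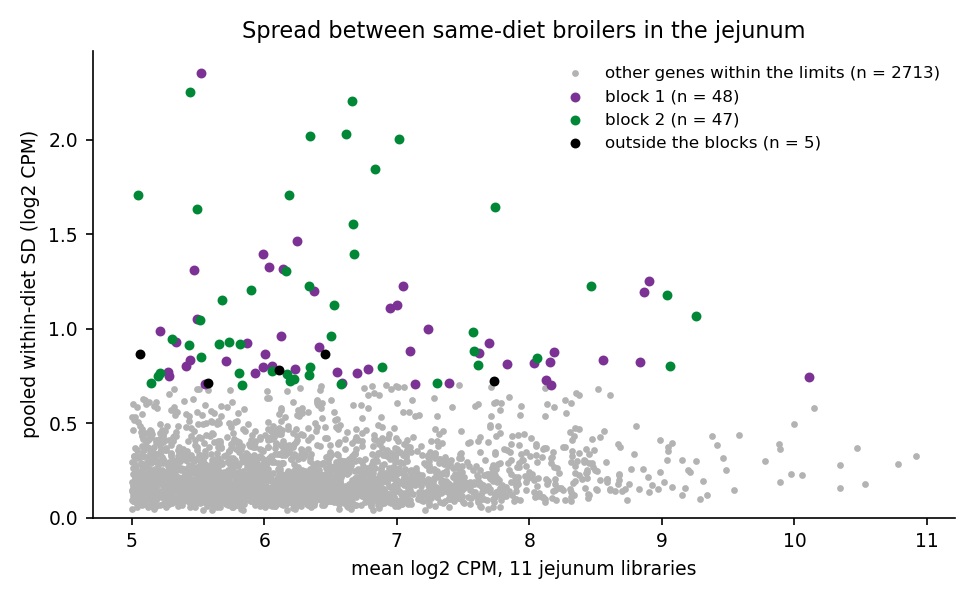
Pooled within-diet SD (y axis, log2 CPM) against the mean log2 CPM of 11 jejunum libraries (x axis) for the 2813 genes within the limits; colours mark the 48 genes of block 1, the 47 genes of block 2 and the 5 other genes of the set. The 100 genes lie above an SD of 0.70 over the range of means from 5.05 to 10.1, and the 6 genes above 2 have means between 5.44 and 7.01.

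The 100 genes did not vary one by one. After each gene was centred on its diet means, clustering by Pearson correlation over the 11 jejunum libraries (average linkage, cut at a mean r of 0.5) gave 2 blocks that held 95 genes. Block 1 had 48 genes and block 2 had 47. The median r between 2 genes of a block was 0.83 in block 1 (1128 pairs) and 0.93 in block 2 (1081 pairs), and r was above 0.5 in 92.4% and 96.1% of the pairs. The lowest r of a pair was -0.02 in block 1 and -0.11 in block 2. Genes chosen for a large SD over few libraries share the libraries that give it, so these correlations are given without a test. They are given over all 11 libraries only.
Block 1 was on average low in 3 broilers, though not in each of its genes. Its mean log2 CPM was 7.41, 6.88, 7.18, 5.25 and 7.35 in control replicates 1 to 5 and 5.33, 7.30, 7.25, 7.29, 7.11 and 6.07 in SB replicates 1 to 6. Control replicate 4 and SB replicate 1 were lowest and SB replicate 6 followed, whereas the other 8 libraries lay between 6.88 and 7.41. The 2 lowest libraries were control replicate 4 and SB replicate 1 in 32 of the 48 genes, and in 33 genes these and SB replicate 6 were the 3 lowest. The block took 2.12% of all counts in control replicate 1 and 0.56% in SB replicate 1.
Block 2 was on average high in a few broilers. Its mean log2 CPM was 6.20, 7.97, 5.78, 7.87 and 5.55 in control replicates 1 to 5 and 8.12, 5.69, 5.57, 6.05, 5.64 and 6.89 in SB replicates 1 to 6. SB replicate 1, control replicate 2 and control replicate 4 were highest and SB replicate 6 was next, whereas the other 7 libraries lay between 5.55 and 6.20. In 39 of the 47 genes, the 3 highest libraries were these 3. The block took 3.55% of all counts in SB replicate 1, 3.44% in control replicate 2 and 3.08% in control replicate 4, against 0.53% in control replicate 5.
The blocks ran in opposite directions but not in all broilers. The correlation of their levels, centred within diet, was -0.84 over the 11 libraries and -0.69 over the 9 without control replicate 4 and SB replicate 1. Control replicate 2 departed from this relation. It was among the highest in block 2, at 7.97, and was close to the diet mean in block 1, at 6.88 against a mean of 6.81 in control broilers. Block levels had r of -0.01 (block 1) and -0.05 (block 2) with the log2 total count, and the deepest library, SB replicate 5, lay within the range of the libraries that do not stand apart in both blocks.

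**Figure D2:**
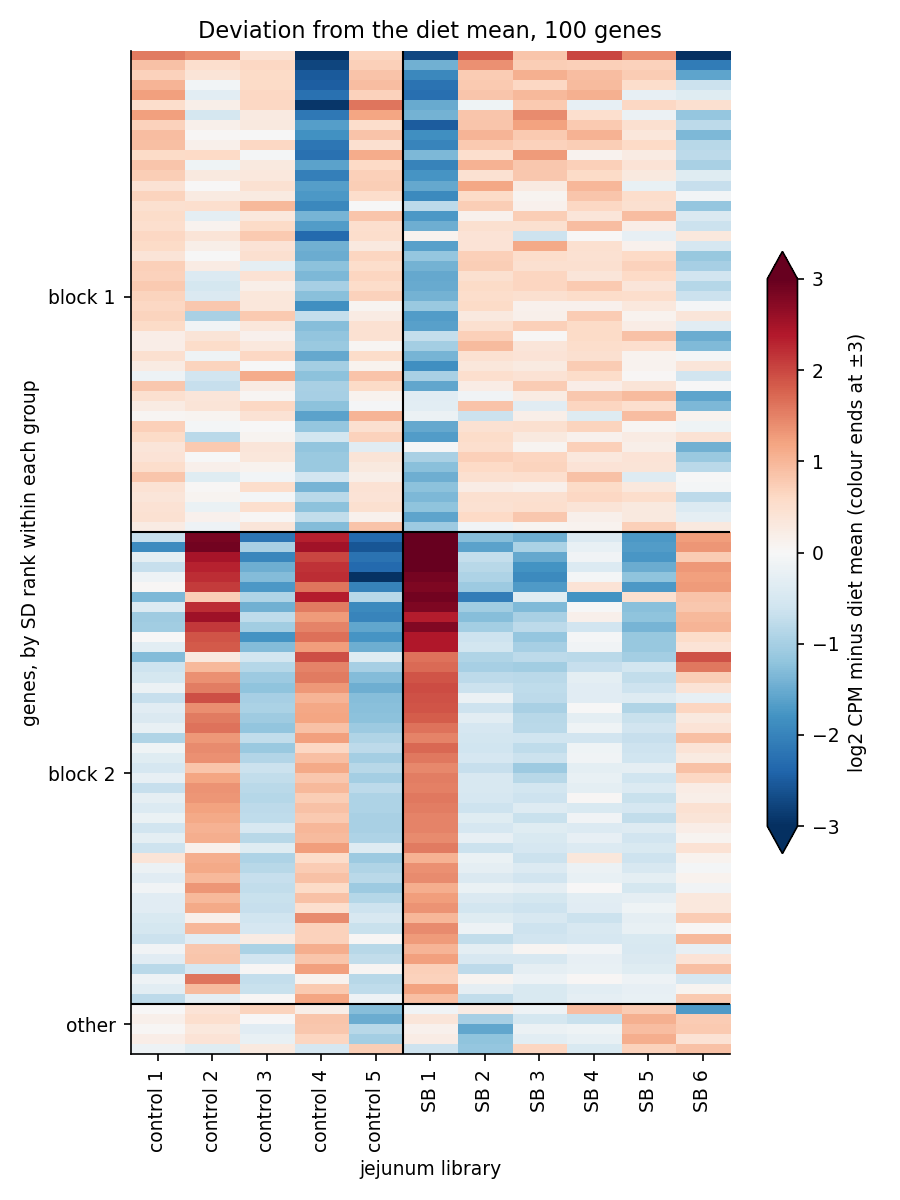
Log2 CPM minus the diet mean (colour, red above and blue below the mean) for the 100 genes (rows, by block and SD rank) in the 11 jejunum libraries (columns). Block 1 is blue in control 4, SB 1 and, less so, SB 6, and block 2 is red in control 2, control 4, SB 1 and, less so, SB 6.

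**Figure D3:**
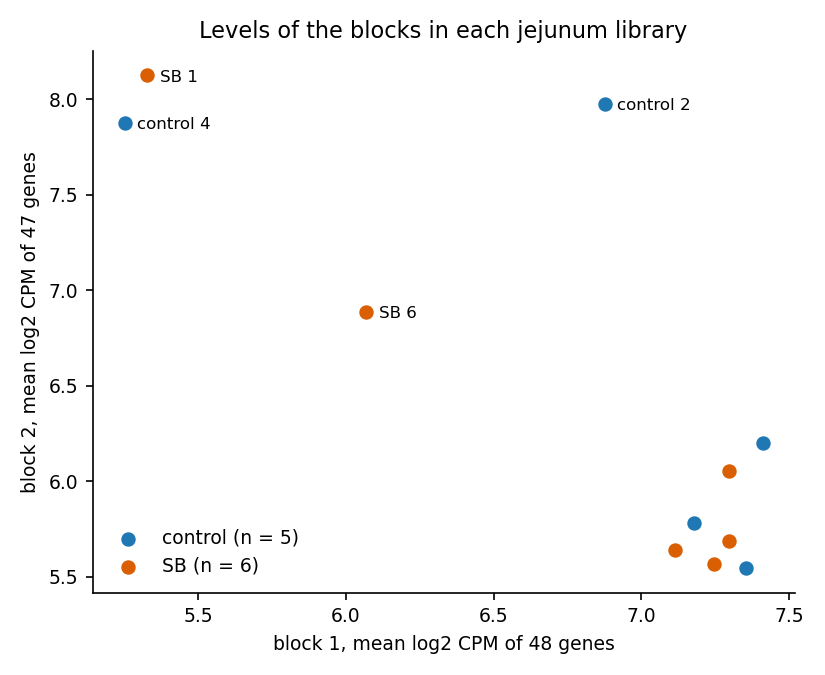
Mean log2 CPM of block 2 (y axis, 47 genes) against block 1 (x axis, 48 genes) in each jejunum library, with 5 control and 6 SB libraries as points. Control 4 (5.25, 7.87) and SB 1 (5.33, 8.12) lie together at the upper left, control 2 (6.88, 7.97) lies above the rest, SB 6 (6.07, 6.89) lies between, and 7 libraries of both diets lie together at the lower right.

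The most variable gene of the set was ENSGALG00010005743, in block 1, with an SD of 2.35. Its CPM was 197, 177, 92.4, 4.05 and 105 in control replicates 1 to 5 and 5.04, 118, 59.7, 134, 88.6 and 3.35 in SB replicates 1 to 6. SB replicate 6, control replicate 4 and SB replicate 1 were far below the other 8 libraries, which lay between 59.7 and 197. From the lowest to the highest library, the gene differed 58.9 times.
Block 1 also held ENSGALG00010014946 (SD 1.46), with 135, 106, 115, 11.1 and 122 CPM in control and 28.6, 199, 129.7, 128, 125 and 18.2 CPM in SB-fed broilers, in the same order of replicates. The same 3 broilers were lowest, and the other 8 libraries did not overlap with them. ENSGALG00010020315 had the highest mean correlation with the rest of block 1 (0.88). Its CPM was 915, 543, 749.9, 108 and 683 in control and 114, 773, 722, 754, 682 and 252 in SB-fed broilers, so that SB replicate 6 lay between the 2 lowest libraries and the others.
ENSGALG00010011444 (SD 1.31) had 79.6, 62.7, 84.2, 7.25 and 168 CPM in control and 13.0, 33.8, 63.9, 31.2, 56.8 and 51.6 CPM in SB-fed broilers. Here SB replicate 6, at 51.6 CPM, was not low, and SB replicates 2 and 4 were below it. ENSGALG00010022440 (SD 1.33), which had the second highest mean correlation with the block (0.88), had 134, 62.2, 98.1, 11.9 and 126 CPM in control and 14.1, 113, 101, 126, 94.3 and 41.7 CPM in SB-fed broilers, with control replicate 2 also below the other libraries that were not low.
Only 1 gene of block 1 could be given a symbol, CYP2C23a (ENSGALG00010020676, chromosome 6, 18351042 to 18358414 in the RefSeq annotation of GRCg7b). It encodes a cytochrome P450 of the 2C subfamily, whose members oxidize fatty acids and foreign compounds. In the study's enrichment analysis, terms counted as more than 1 gene name only this symbol, so it may cover several entries. The CPM of ENSGALG00010020676 was 1227, 366, 636, 119 and 1188 in control and 165, 787, 1184, 623, 394 and 198 in SB-fed broilers. Besides the 3 low broilers, control replicate 2 and SB replicate 5 were also below the other 6 libraries, and the gene differed 10.3 times between its lowest and its highest library.
Block 2 held 5 of the 6 genes with an SD above 2. ENSGALG00010003583 (SD 2.25) had 38.7, 447, 13.9, 312 and 12.4 CPM in control and 395, 13.3, 11.7, 23.9, 9.68 and 77.2 CPM in SB-fed broilers. The 3 high broilers were at 312 CPM or more, and the next library was SB replicate 6, at 77.2 CPM. ENSGALG00010008029 (SD 2.21) had 28.2, 778, 53.4, 605 and 17.8 CPM in control and 869, 32.4, 50.6, 83.9, 30.7 and 244 CPM in SB-fed broilers, with SB replicate 6 again between the high and the low libraries.
The other 3 genes of block 2 with an SD above 2 were high in the same 3 broilers. ENSGALG00010018016 reached 759, 551 and 781 CPM in control replicate 2, control replicate 4 and SB replicate 1, and 22.2 to 126 CPM in the other 8 libraries. ENSGALG00010012633 reached 558, 503 and 589 CPM in the same broilers and 17.7 to 151 CPM in the others, and ENSGALG00010005012 reached 763, 766 and 775 CPM against 21.1 to 246 CPM. No library outside the 3 overlapped with them in any of these genes.
The gene with the highest mean correlation with the rest of block 2 (0.93) was near the end of the ranking. ENSGALG00010027174, at rank 90, had 63.9, 143, 54.2, 143 and 48.3 CPM in control and 158, 48.4, 48.2, 56.9, 50.3 and 88.9 CPM in SB-fed broilers. Its SD was 0.72, and its highest library was 3.28 times its lowest, with the same broilers at the top as in the most variable genes.
Not every gene of block 2 was as high in control replicate 2 as in the other high broilers. ENSGALG00010009615 (SD 1.31) had 23.1, 70.0, 39.3, 217 and 44.7 CPM in control and 267, 46.0, 49.8, 49.3, 42.3 and 324 CPM in SB-fed broilers, so that SB replicate 6 was highest and control replicate 2 was well below control replicate 4. ENSGALG00010016168 (SD 0.81) had 128, 213, 152, 465 and 149 CPM in control and 579.7, 126, 138, 149, 144 and 267 CPM in SB-fed broilers. In ENSGALG00010007911 (SD 1.64), by contrast, control replicate 2 was highest at 1654 CPM, ahead of SB replicate 1 (862 CPM) and control replicate 4 (693 CPM).

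The same few libraries were most often the farthest from their diet mean. The library farthest from its diet mean was control replicate 4 in 22, SB replicate 1 in 21 and SB replicate 6 in 5 genes of block 1. In block 2 it was SB replicate 1 in 36, control replicate 4 in 5, control replicate 2 in 4 and control replicate 5 in 2 genes. Without control replicate 4 and SB replicate 1, the median SD fell from 0.85 to 0.55 in block 1 and from 0.94 to 0.77 in block 2. When the ranking itself was made without them, 69 of the 100 genes stayed in the set. The blocks were drawn differently without these libraries, with 5 blocks, the largest of 44 and 35 genes, and 43 genes of block 2 and 34 of block 1 still fell into a single block each.
In block 1, the median SD was 0.87 in control and 0.88 in SB-fed broilers, and the larger SD belonged to control broilers in 22 genes and to SB-fed broilers in 26. In block 2, the SD was larger in control broilers in 41 of 47 genes, with medians of 1.03 and 0.90. Of the 5 control libraries, 2 were high in block 2, and of the 6 SB libraries, 1 was high and 1 lay in between. The difference in SD between the diets was not tested, and genes of a block move together, so the 41 genes are not separate observations.

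The blocks followed the leading pattern of the jejunal transcriptome. Component 1 of a principal component analysis of the 14488 jejunal genes that passed the filter on low counts (values centred and not scaled) held 37.5% of the variance, and component 2 held 9.84%. The scores of component 1 were 59.7 in SB replicate 1, 54.9 in control replicate 4, 29.2 in SB replicate 6 and 10.9 in control replicate 2, and lay between -26.7 and -14.0 in the other 7 libraries. These are the 4 libraries that were high in block 2.
The 100 genes made up 0.69% of the genes in the analysis and 7.52% of the squared loadings of component 1, of which block 1 held 3.16% and block 2 held 4.31%. Genes with a large variance weigh most in an unscaled component, so component 1 was also computed without the 100 genes. It then held 36.1% of the variance and had r of 0.9997 with the first version. Of the 100 genes, 87 had an absolute r of at least 0.7 with this component, against 30.0% of the other genes. The median r was -0.92 in block 1 and 0.83 in block 2. The level of block 1 had r of -0.99 with it and the level of block 2 had r of 0.90. The 100 genes were chosen for their spread over these same libraries, so their tie to the leading pattern is a description. With component 1 of all genes, the median absolute r was 0.86 in the 100 genes. It was 0.63 in the other genes within the limits and 0.52 over all genes.
The genes closest to the component were not the most variable ones. ENSGALG00010009280, at rank 97 by SD, had r of -0.99, and its CPM was 197, 129, 208, 62.7 and 207 in control and 58.6, 185, 190.5, 177, 165 and 101.8 in SB-fed broilers. ENSGALG00010024911 of block 1 also had r of -0.99, and ENSGALG00010016168 of block 2, described above, had r of 0.98. Without control replicate 4 and SB replicate 1, component 1 held 24.2% of the variance, and 51 of the 100 genes had an absolute r of at least 0.7 with it. The share of other genes was not computed for these 9 libraries, so whether 51 exceeds that share is not shown.

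The blocks extended beyond the set. Of the 2713 other genes within the limits, 611 (22.5%) had r above 0.8 with the level of block 1 and 176 (6.49%) with that of block 2. Without control replicate 4 and SB replicate 1, 315 (11.6%) and 131 (4.83%) did. Symbols could be given to genes that the study lists as changed in either tissue, by matching its listed fold changes and P-values. The linked genes named below are not on its list for the jejunum. Of all genes with a symbol, 28 had a jejunal mean of at least 4 log2 CPM, a limit chosen after the values were seen. Among the 28, 8 had r above 0.8 with block 1, CYP2C23a included, and 1 had r above 0.8 with block 2.
BCHE (butyrylcholinesterase, which hydrolyses choline esters) had r of 0.99 with block 1, and 0.96 without control replicate 4 and SB replicate 1. MYO7B, a myosin of the brush border microvilli, had r of 0.91, and 0.58 without these libraries. SLC9A3, the sodium-hydrogen exchanger of the brush border and one of the 2 genes left out by name, had r of 0.86, and 0.53 without them. SLC22A13L had r of 0.89 and 0.91, KRT40 of 0.89 and 0.50, ROS1 of 0.87 and 0.67, CAPN9 of 0.80 and 0.54 and CYP2C23a of 0.92 and 0.86, with and without these libraries. Only 3 of the 8 genes (BCHE, SLC22A13L and CYP2C23a) thus stayed above 0.8 without them. FGFBP1, which binds and releases fibroblast growth factors, was the gene that followed block 2, with an SD of 0.92 and r of 0.98, or 0.96 without these libraries. RYR2, a calcium channel of the sarcoplasmic reticulum, had the lowest r with block 2 among the 28, at -0.90 with and without them. Of the 28, 6 had r below -0.8 with block 2. Besides RYR2 these were BCHE (-0.90), CYP2C23a (-0.84), ROS1 (-0.84), MYO7B (-0.82) and SLC9A3 (-0.80), which also followed block 1. Without control replicate 4 and SB replicate 1, only RYR2 and BCHE (-0.83) stayed below -0.8. These r are over the same 11 libraries, and they do not assign the blocks to a cell type.

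Outside the blocks, 5 genes kept a pattern of their own, and they are named here after their values were seen. A group of 3, ENSGALG00010003777, ENSGALG00010003785 and ENSGALG00010024021, varied together, with r between 0.89 and 0.96 in the jejunum. ENSGALG00010003777 had 137, 176, 124, 219.9 and 44.1 CPM in control and 84.9, 33.1, 46.3, 41.6, 138 and 113 CPM in SB-fed broilers. Control replicate 5 was lowest among control broilers and SB replicate 2 was lowest of all, and neither was low in block 1. ENSGALG00010024021 had the same lowest libraries, with 131 CPM in control replicate 5 and 76.9 CPM in SB replicate 2, and up to 414 CPM in control replicate 4.
In the pancreas, these 3 genes had r between 0.80 and 0.97, and 1 broiler stood far below the rest. These r include that broiler, and r without it was not computed, so shared variation over the other libraries is not shown. ENSGALG00010003777 had 63.4, 45.3, 22.8, 30.2, 1.13 and 14.4 CPM in control replicates 1 to 6 and 18.5, 9.0, 13.0, 5.27 and 22.5 CPM in SB replicates 1 to 5. The lowest value, in control replicate 5, rested on 34 reads. In ENSGALG00010003785 the same library had a count of 0, which allows for up to 3, where the other 10 had between 52 and 959. Control replicate 5, which was also the lowest control library in the jejunum, carries the number 47 in the deposited column names of both tissues. The number was taken as the broiler wherever both tissues are compared, although the labels do not state this in words.
The other 2 genes outside the blocks were alone. ENSGALG00010008096 had 26.6, 34.9, 42.0, 29.9 and 10.8 CPM in control and 37.9, 48.7, 36.9, 78.2, 69.5 and 12.6 CPM in SB-fed broilers, lowest in control replicate 5 and SB replicate 6. ENSGALG00010005301 had 50.4, 43.4, 69.4, 39.7 and 93.0 CPM in control and 27.2, 18.8, 64.7, 30.6, 67.1 and 76.8 CPM in SB-fed broilers, highest in control replicate 5.

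The rule used only the mean of each gene in the pancreas, so the spread there is a measure the choice of genes did not use. The pooled SD in the pancreas was above the median of 0.246 of the 11934 genes in the same range of pancreatic means in 89 of the 100 genes, against 32.2% of the other genes within the limits. The blocks differed in this. The median SD in the pancreas was 0.47 in block 1 and 1.03 in block 2. The median r between 2 genes in the pancreas was 0.17 in block 1 and 0.87 in block 2. In block 2, control replicate 2 was farthest from its diet mean in 39 of the 47 genes, and r without it was not computed.
The level of block 2 in the pancreas was 3.39, 6.46, 4.05, 4.29, 3.90 and 4.10 log2 CPM in control replicates 1 to 6 and 5.84, 3.46, 4.08, 3.98 and 4.36 in SB replicates 1 to 5. Control replicate 2 and SB replicate 1 were above the other 9 libraries, which lay between 3.39 and 4.36. In 40 of the 47 genes, control replicate 2 was the highest of the 11 pancreas libraries, and in 42 genes SB replicate 1 was among the 2 highest. ENSGALG00010003583 had 2.27, 131, 6.23, 3.27, 4.96 and 5.66 CPM in control and 47.99, 2.61, 4.79, 3.47 and 6.13 CPM in SB-fed broilers. ENSGALG00010008029 had 32.9, 939.9, 54.5, 82.5, 43.0 and 57.7 CPM and 442, 19.9, 43.1, 39.1 and 43.1 CPM, and both genes were highest in these 2 libraries. Without both libraries, the median SD in the pancreas was 0.42 in block 2 and 0.50 in block 1, against 0.226 in the genes of the same range of means.
By their column numbers, both libraries belong to broilers that were high in the jejunum. These numbers link both tissues of 10 broilers, and the diets of the linked columns match, but that a shared number is the same animal remains inferred. Control replicate 2 carries the number 17 and SB replicate 1 the number 3 in both tissues, and they are called broilers 17 and 3 here. Broiler 17 was 1.30 log2 CPM above its diet mean in block 2 in the jejunum and 2.10 above it in the pancreas, and broiler 3 was 1.80 and 1.49 above. Broiler 39 (control replicate 4), which was 1.20 above in the jejunum, was at -0.08 in the pancreas. The deviation had the same sign in both tissues in 9 of 10 broilers. Broilers 17 and 3 raised the diet means of the pancreas, so all other control broilers and most other SB-fed broilers lay below these means. Broiler 41 matched with a pancreas deviation of only 0.01, and the signs were not counted without broilers 17 and 3.
Over the 10 broilers, the levels of block 2 in both tissues had a Pearson r of 0.80 and a Spearman rho of 0.89. Without broilers 3 and 17, r was 0.65 over 8 broilers. Of the 47 genes, 41 had r above 0.5 between the tissues, and 21 still did without broilers 3 and 17. Among the other genes within the limits, 16.3% and 16.2% had r above 0.5. Genes of block 2 were grouped because they move together, so the 41 and the 21 do not count as separate observations. In block 1, 10 of 48 genes had r above 0.5, the levels had r of -0.09 (Spearman rho 0.10), and the sign matched in 4 of 10 broilers. The levels of block 1 in the pancreas spanned 3.58 to 4.34 log2 CPM.

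**Figure D4:**
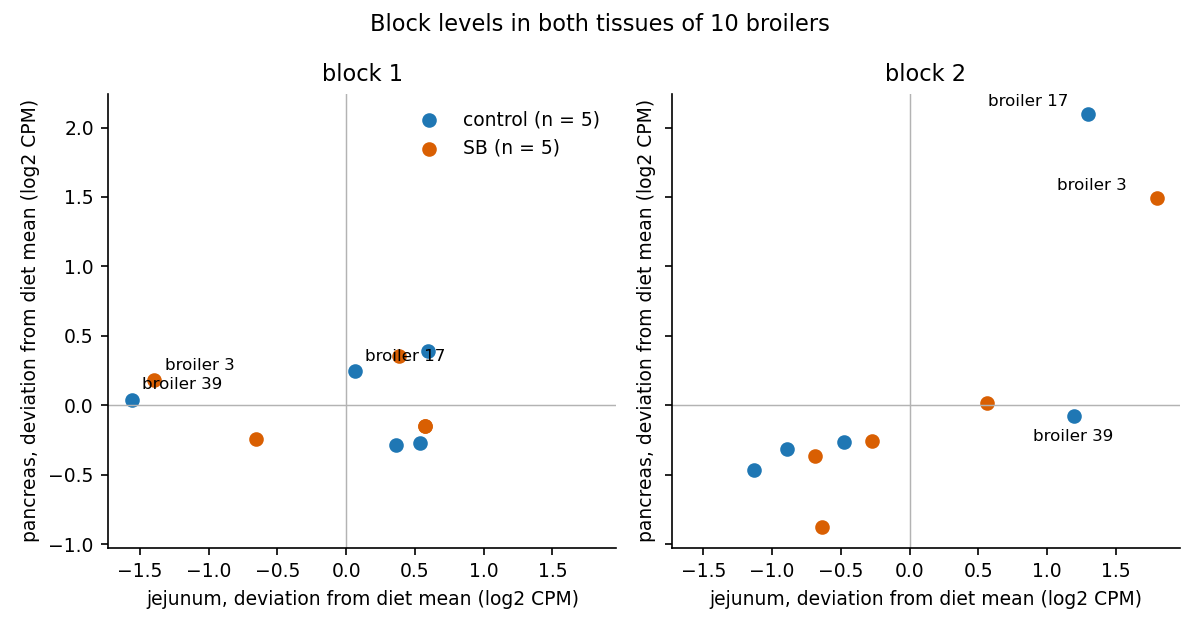
Deviation of the block level from its diet mean in the pancreas (y axis, log2 CPM) against the jejunum (x axis, log2 CPM) for 10 broilers with both tissues, with block 1 on the left and block 2 on the right, on the same axes. In block 2, broilers 17 (1.30, 2.10) and 3 (1.80, 1.49) lie at the upper right and broiler 39 (1.20, -0.08) does not, and in block 1 the pancreas deviations stay between -0.28 and 0.39.

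The diets were compared gene by gene to ask whether SB moved the set. In the jejunum, 0 of the 100 genes passed the thresholds of the study (a log2 fold change of 1 or more in either direction, with an unadjusted P under 0.05, here from edgeR's quasi-likelihood test), which 0.338% of the 14488 genes tested passed. The size limit alone was reached by 1 of the 100 genes, against 0.683% of all genes. The pooled SD that chose the genes is also the error of this test, which makes a call less likely for them. An unadjusted P under 0.05 was reached by 1 of the 100 genes, against 1.97% of all genes. After Benjamini-Hochberg adjustment over all genes, edgeR, DESeq2 and limma-voom each called 0 of the 100 genes and 0 of all 14488 genes tested. The smallest adjusted p among the 100 genes was 1.00. The ranges of the diets overlapped in all 100 genes, against 0.131% of all tested genes without overlap. A wide spread within each diet makes such overlap likely, so these counts cannot show whether SB left the set unmoved.
The gene with an unadjusted P under 0.05 was ENSGALG00010016678 of block 1, named after its values were seen. Its CPM was 52.8, 53.7, 68.5, 16.5 and 103 in control and 27.4, 20.0, 34.9, 23.7, 59.4 and 33.7 in SB-fed broilers. Control replicate 4 was lowest of all and SB replicate 5 lay above 3 of the 5 control broilers. The log2 fold change (SB minus control) of -0.83 had a standard error of 0.38 (edgeR, unadjusted P = 0.0479, adjusted p = 1.00). An exact permutation test of the log2 CPM returned p = 0.169. The unadjusted P stayed under 0.05 only when control replicate 4 or SB replicate 5 was the library left out.
In block 1, as many genes were lower as higher in SB-fed broilers. Its mean log2 CPM was 6.81 ± 0.90 (SD, n = 5) in control and 6.72 ± 0.83 (SD, n = 6) in SB-fed broilers, with 24 genes in each direction and a median log2 fold change of -0.02. This median ranged from -0.24 to 0.14 with each library left out, so block 1 had no stable direction. Block 2 was at 6.67 ± 1.16 (SD, n = 5) and 6.33 ± 1.01 (SD, n = 6) log2 CPM. In block 2, 39 of 47 genes had a log2 fold change below 0 (lower in SB-fed broilers), against 48.7% of all genes tested, with a median of -0.40 against 0.003 over all genes. Genes of a block move together, so the 39 genes do not count as separate observations.
The count of calls turned on single broilers. Without SB replicate 1, 14 genes of the set passed the thresholds of the study, against 0.575% of all genes. All 14 were in block 2 and lower in SB-fed broilers, and the median log2 fold change of block 2 was -0.94. An adjusted p under 0.05 was reached by 0 genes of the set and by 0 of all genes tested. Without control replicate 2, the median of block 2 was -0.03 and 0 genes of the set passed, against 0.446% of all genes. Without both control replicate 4 and SB replicate 1, 3 genes passed, against 0.455% of all genes, and without control replicate 4 alone 3 genes passed, against 0.488%.
In the pancreas, 2 of the 100 genes passed the thresholds of the study, against 1.10% of 14116 genes tested, and 4 had an unadjusted P under 0.05, against 3.85%. A log2 fold change of 1 or more in either direction was reached by 9 of them, against 2.54% of all genes, and the ranges of the diets overlapped in all 100, against 0.298% of all genes without overlap. After adjustment, edgeR and limma-voom called 0 of the 100 genes and 0 of all 14116 genes tested. DESeq2 called 1 of the 74 genes of the set to which it gave an adjusted p, and 15 over all genes. ENSGALG00010001707 of block 2 had 4.62, 8.54, 29.0, 6.25, 5.9 and 17.1 CPM in control and 246, 32.3, 25.5, 49.9 and 139 CPM in SB-fed broilers. Control replicate 3 lay above SB replicate 3, and all other SB-fed broilers lay above every control broiler. The log2 fold change of 3.02 had a standard error of 0.68 (edgeR, unadjusted P = 0.000878, adjusted p = 0.942). This was the gene of the set that DESeq2 called, with an adjusted p of 0.0191. The study's own enrichment analysis of changed pancreatic genes also names it. An exact permutation test of the log2 CPM returned p = 0.00649, where the smallest possible value is 0.00216. Without each library in turn, the log2 fold change ranged from 2.35 to 3.50.
In the jejunum, the same gene had 13.9, 58.7, 18.8, 179 and 19.6 CPM in control and 233, 7.48, 24.6, 9.13, 43.9 and 56.6 CPM in SB-fed broilers. In this tissue its log2 fold change was 0.10 (standard error 0.92). The difference between the tissues gave an unadjusted P = 0.0232 (edgeR, interaction, adjusted p = 1.00), and it was the only one of the 100 genes with an unadjusted P under 0.05 in that test, against 3.47% of all 15032 genes. That fit treats the 22 libraries as separate, although 10 broilers appear to have given both tissues. With the broiler as a block, chosen after seeing the data, the unadjusted P was 0.0225 (edgeR, adjusted p = 0.999).
CYP2C23a was the second gene, with 4.85, 8.62, 9.36, 8.8, 6.78 and 24.4 CPM in the pancreas of control and 13.4, 19.6, 7.6, 89.1 and 11.0 CPM in SB-fed broilers. An estimated log2 fold change of 1.41 had a standard error of 0.64 (edgeR, unadjusted P = 0.0481, adjusted p = 0.995). An exact permutation test of the log2 CPM returned p = 0.149. SB replicate 4 was far above the rest, and the fit that left it out gave 0.27. The gene passed the thresholds only when the library left out was control replicate 6 or SB replicate 1, 3 or 5. In block 2, 36 of 47 log2 fold changes were below 0 in the pancreas, against 53.6% of all genes, with a median of -0.30. This direction rested on control replicate 2, without which the median of block 2 was 0.52. Without SB replicate 1 it was -0.77, and without both libraries -0.03. The mean log2 CPM of block 2 was 4.37 ± 1.07 (SD, n = 6) in control and 4.34 ± 0.89 (SD, n = 5) in SB-fed broilers. Over the 100 genes, 24 were below 0 without control replicate 2, against 56 with it.

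**Figure D5:**
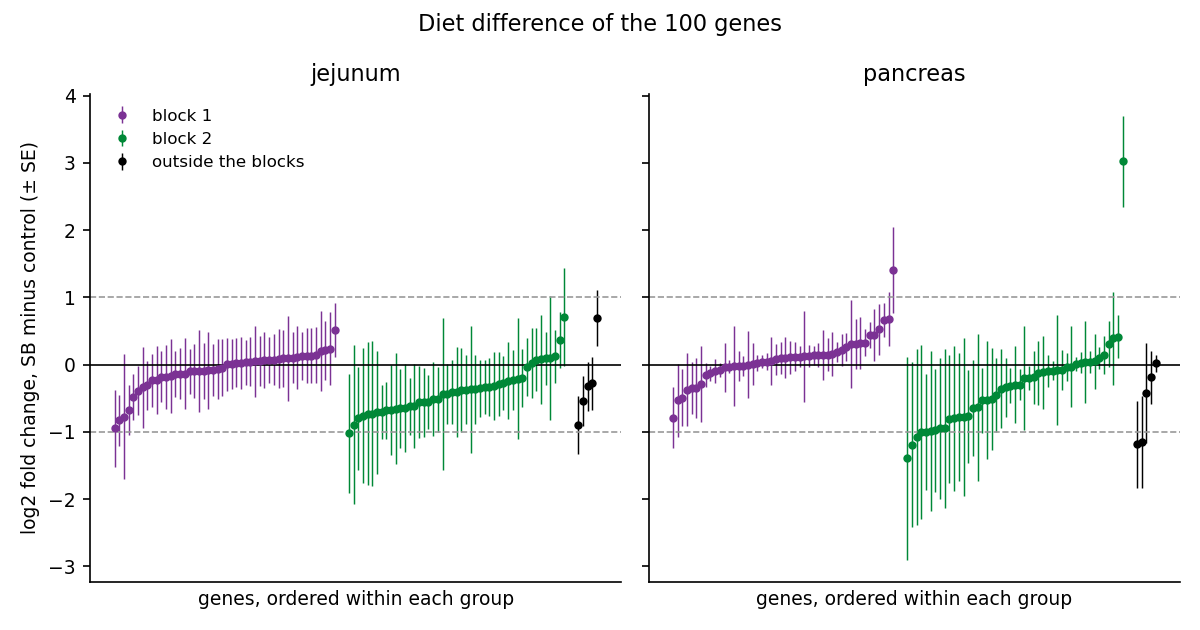
Log2 fold change between the diets (y axis, SB minus control, points with standard errors of edgeR's fit) for the 100 genes, ordered by value within each block (x axis), in the jejunum on the left and the pancreas on the right; dashed lines mark -1 and 1. In the jejunum the values lie between -1.02 and 0.71, and in the pancreas ENSGALG00010001707 stands apart at 3.02.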

How the data were processed

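RNA of 22 libraries from the jejunum and pancreas of broilers on d 24 was analysed. The authors deposited whole-number read counts per Ensembl gene and log2 CPM values. According to the study's methods, reads were trimmed with Trimmomatic, aligned to GRCg7b with STAR and counted with HTSeq, whereas the submitters' processing notes name DRAGEN, Trimmomatic and edgeR. How multi-mapping reads were counted is not given in the sources used here, so genes with near-identical copies are uncertain. The deposited log2 CPM values were scaled with TMM factors (trimmed mean of M-values) from all 22 libraries and a prior count of 2, since 374154 of 374154 values were recomputed from the counts to within 1e-06. CPM in the text is the back-transformed value.
Genes were ranked, clustered and entered into the principal component analysis on these log2 values. Diets were compared within each tissue on the counts after filterByExpr (minimum count 10, minimum total 15), with the quasi-likelihood test of edgeR 4.0.16 in R 4.3.3 (legacy = FALSE, robust = FALSE) and Benjamini-Hochberg adjustment. The script was also tested on simulated data. Whether a diet difference varied with the tissue was asked with an interaction term in a fit of all 22 libraries, without and with the broiler as a block. The exact permutation test of mean log2 CPM was two-sided. Standard errors were taken from F, as the absolute log2 fold change over the root of F. DESeq2 1.42.0, limma-voom (limma 3.58.1), other scalings and filters and each library left out were tried as alternatives. Replicates are single broilers from separate pens.
The 100 genes, the lists and the tests were chosen with earlier results of these data known. By rule, 31 genes could be named, namely the 25 with the largest SD, 3 per block with the highest mean correlation and 5 closest to component 1, with overlaps. The text gives those its statements turn on, and others are said to be chosen after their values were seen. Symbols were linked by matching the log2 fold changes and P-values in the study's lists of changed genes with edgeR's earlier quasi-likelihood method, within 0.0006. This gave 1 identifier for 164 of 166 entries, and 41 of 41 entries listed by identifier fell on their own. Coordinates are those of the RefSeq table of GRCg7b. Lists of pathway and cell type genes and promoter motifs were not analysed here, and no sequence is shown.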

Additional observations from a re-analysis of the deposited data

Results flagged for a closer look

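In groups of 4 to 10 libraries, the lowest or highest value was set against the range of its group by Dixon's limit, which flags about 1 in 20 groups by chance. Of 80 groups tested, 7 were past the limit. That rate does not apply to 6 of the 7, since they are jejunal values of genes chosen for a large spread over these same libraries, and these 6 are a description only. The level of block 1 in the jejunum of control replicate 4 was 5.25 log2 CPM, while the other control libraries lay between 6.88 and 7.41. Genes of block 1 that stood apart in the same library were ENSGALG00010005743 (2.02 log2 CPM), ENSGALG00010014946 (3.47), ENSGALG00010004109 (3.55), ENSGALG00010021099 (5.37) and ENSGALG00010020315 (6.75). These 5 genes move together and are not separate observations. The level of block 2 in the pancreas of control replicate 2 was 6.46 log2 CPM, while the other control libraries lay between 3.39 and 4.29. All 7 were in control libraries, which does not show that SB libraries stood less apart. In the jejunum, SB replicates 1 and 6 were low together in block 1 (5.33 and 6.07 log2 CPM). Values that are low together can keep each other within such a limit. What sets the flagged libraries apart was not tested.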

How the results depend on the processing

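The make-up of the set depended on its limits and on single libraries. Of the 100 genes, 62 stayed with scaling factors from each tissue alone, which shift the median of all genes by 0.81 log2 in the jejunum and by -0.81 in the pancreas, 55 with the median absolute deviation in place of the SD, and 61 and 66 with a jejunal mean of at least 4 and 6. Only 66 of the 100 genes have a jejunal mean of at least 6, so the higher limit itself removed the others. Without control replicate 4 and SB replicate 1, 69 stayed, and with each jejunum library left out 84 to 98. With tissue-specific factors 5669 genes met the limits, and 95 of the 100 genes kept an SD of at least that of rank 100. The number of genes tied to component 1 was 51 without control replicate 4 and SB replicate 1, a choice made after seeing the data. No share of other genes stands beside it. Spearman correlation gave 5 blocks, the largest of 45 and 35 genes.
In the jejunum, genes of the set past the thresholds of the study ranged from 0 to 14 with each library left out. The share over all genes ranged from 0.301% to 0.575%. Genes of the set with an unadjusted P under 0.05 ranged from 0 to 20. Both highest counts came without SB replicate 1, where 413 of 14440 genes had such a P. Those with an unadjusted P under 0.05 were 2 with DESeq2 and 0 with limma-voom, against 335 and 243 of 14488 genes. Without control replicate 4 and SB replicate 1, both counts were 3 and 4, against 66 and 448 of 14497 genes. In the pancreas both counts ranged from 1 to 7 and from 1 to 9 with each library left out. The share over all genes past the thresholds ranged from 1.01% to 1.67%. In the set, 1 gene passed with limma-voom and 1 without control replicate 2 and SB replicate 1, against 0.708% and 1.14% of all genes. The 7 and the 9 were reached without SB replicate 1, where 703 of 14145 genes had an unadjusted P under 0.05. Of the 7, 5 were lower in SB-fed broilers. Over all genes, calls rose without the filter on low counts from 49 to 148 in the jejunum and from 155 to 332 in the pancreas. Some median log2 fold changes changed sign with single libraries. In the pancreas they ranged with each library left out from -0.77 to 0.52 in block 2 and from -0.16 to 0.24 over the 100 genes, against -0.30 and -0.04 with all, and both were above 0 without control replicate 2. In the jejunum the median of block 1 ranged from -0.24 to 0.14, was 0.09 with the replicate block and -0.02 with all libraries. With each jejunum library left out, the median stayed below 0 in block 2 (-0.94 to -0.03) and over the 100 genes (-0.28 to -0.03). The cause of the moved counts was not tested.
No pairing of broilers by replicate number is described. The 5 pairs of each tissue had r from -0.41 to 0.17 (jejunum) and from -0.46 to 0.22 (pancreas), which cannot show whether broilers were paired. With the replicate number as a block, 0 genes of the set passed in the jejunum and 3 had an unadjusted P under 0.05, and 2 passed in the pancreas.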
